A study of Mus musculus with 12 samples.

Results

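The liver turns the ammonia released from amino acids into urea. The mRNAs of 8 enzymes of this process were followed through the day in mouse liver: Cps1, Otc, Ass1, Asl and Nags of the urea cycle, and Glul, Gls2 and Glud1, which bind or release ammonia through glutamine and glutamate. The genes were chosen by name for their place in the pathway. All 8 were found among the 20069 genes of the table, and all 8 were among the 10198 genes that passed the minimum for expression (at least 1 value above 8 reads per base pair).

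Poly(A) RNA was sequenced from livers of wild-type C57BL/6 males, adults of 3 to 6 months of age, and the labels give no treatment beside the light cycle. They were housed for at least 2 weeks with 12 hr of light and 12 hr of darkness. Livers were taken every 4 hr from ZT2 to ZT22, where the Zeitgeber time (ZT) counts the hours from lights on. Each of these 6 time points was sampled in 2 series, which gave 12 libraries. The signal is the mean coverage of the exons of a gene in reads per base pair (rpbp), set to the same 40000000 mapped sequences in every library, so levels of different genes can be compared per length of exon. The sequencing depth of single libraries is not given by this scaled signal, and the limit on precision is the number of samples, 2 at each time point. How many livers went into a sample is not given in the sources used here, so p-values measure the spread between these samples.

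As background, the urea cycle begins in the mitochondria of hepatocytes, where carbamoyl phosphate synthetase joins ammonia to bicarbonate and ornithine transcarbamylase hands the product to ornithine. The later steps run in the cytosol. Urea synthesis is known for its place in hepatocytes around the portal vein, whereas glutamine synthetase sits in a narrow ring around the central vein and takes up the ammonia that escapes the cycle. Mice feed mostly in the dark phase, and the levels of urea cycle enzymes are known to follow dietary protein, glucagon and glucocorticoids.

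The liver identity of the libraries was checked on marker genes. All 8 listed hepatocyte markers were expressed, and their sum was 115339 to 175244 rpbp. Of 6 kidney and intestine markers, 4 were found in the table, with a sum of 117 to 488 rpbp. Only Fabp2 was expressed among them, and Umod, Vil1 and Lct reached at most 0.28 rpbp. All 6 listed clock genes were rhythmic, but a rhythm call alone cannot check the time labels, since it stays the same when all labels are shifted. Their peaks fell at ZT5.3 (Nr1d1), ZT7.4 (Dbp), ZT9.2 (Gm129), ZT12.2 (Per2), ZT21.05 (Arntl) and ZT21.95 (Npas2). Npas2 and Gm129 had means below 8 rpbp and passed the minimum for expression in 1 and 4 libraries only. Their calls rest on the libraries that let them in. The ZT2 libraries stood apart from the rest: across expressed genes the correlation of log values of a ZT2 library with a library of another time was 0.944 in the median, against 0.967 among the other time points, while samples of the same time point correlated at 0.975 or higher. In both ZT2 libraries the summed signal of the 7 Kupffer cell markers was 584 and 588 rpbp, above the 287 to 471 rpbp of the other 10 libraries, with 4 of 7 markers higher in both than anywhere else (Clec4f, Cd5l, Vsig4 and Csf1r). The sum of the hepatocyte markers was lower at ZT2 (115339 to 116256 rpbp) than elsewhere (136823 to 175244 rpbp), but 5 of its 8 genes were higher at ZT2 and 3 were lower, among them the albumin gene Alb. No gene of these lists was at 0 throughout. Of the 8 mRNAs studied, 3 (Otc, Ass1 and Asl) were lower in both ZT2 libraries than in the other 10, as were 9.58% of all expressed genes, and none was higher in both, against 10.4% of all. Whether these shifts have a part in the results below was not tested, and in whole liver fewer cells of a type and less RNA per cell cannot be told apart. Values without the ZT2 libraries are given beside the calls of the 8 mRNAs, and for the other lists as counts of genes.

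At the level of mRNA, the urea cycle enzymes were among the abundant transcripts of the liver. Cps1 had the highest mean signal of the 8, 1499 ± 376 rpbp (SD, n = 12 libraries), and ranked 111 among the 10198 expressed genes. Glud1 followed with 1116 ± 104 rpbp, Ass1 with 1094 ± 148 rpbp, Glul with 914 ± 79.9 rpbp, Otc with 680.2 ± 53.1 rpbp, Asl with 525 ± 164 rpbp, Gls2 with 324 ± 39.3 rpbp and Nags with 89.6 ± 7.37 rpbp. Some neighbours in this order were not separated within libraries. Glud1 exceeded Ass1 in 8 of 12 libraries, and Asl exceeded Gls2 in 9 of 12, the exceptions being the ZT2 libraries and one ZT6 library. Cps1 exceeded Glud1, and Gls2 exceeded Nags, in all 12 libraries. Nags, whose product N-acetylglutamate is the obligatory activator of carbamoyl phosphate synthetase, was the lowest of the 8 and the only one outside the upper 10 percent of expressed genes, at 16.9 percent from the top.

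Rhythmic mRNA expression was defined by 3 criteria together: a permutation p below 0.05, an F24 above 0.45 and an amplitude above 1.5. F24 is the share of the variance of the 12 values that a 24 hr cosine takes up, the permutation p compares it with 10000 random orders of the 12 values, and the amplitude divides the highest of the 12 values by the lowest. By these criteria 3 of the 8 mRNAs were rhythmic (Cps1, Ass1 and Asl), where 19.1% of all expressed genes were. All 3 belong to the cycle itself and peaked between ZT13.4 and ZT15.0, shortly after lights off. The wider window from ZT6 to ZT18 held these 3 peaks and those of 46.1% of all rhythmic mRNAs. The share of all rhythmic mRNAs in the narrower window was not computed. The remaining 5 (Otc, Nags, Glul, Gls2 and Glud1) did not meet the criteria. Asl alone also met the stricter minimums for F24 and amplitude that mark a strong rhythm, as did 7.89% of all expressed genes, and Asl alone kept an adjusted permutation p below 0.05 (Benjamini-Hochberg over all 10198 genes), as did 5.62% of them. The median F24 was 0.402 over the 8 mRNAs and 0.310 over all expressed genes, while the median amplitude was 1.38 over the 8 and 1.64 over all.

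**Figure D1:**
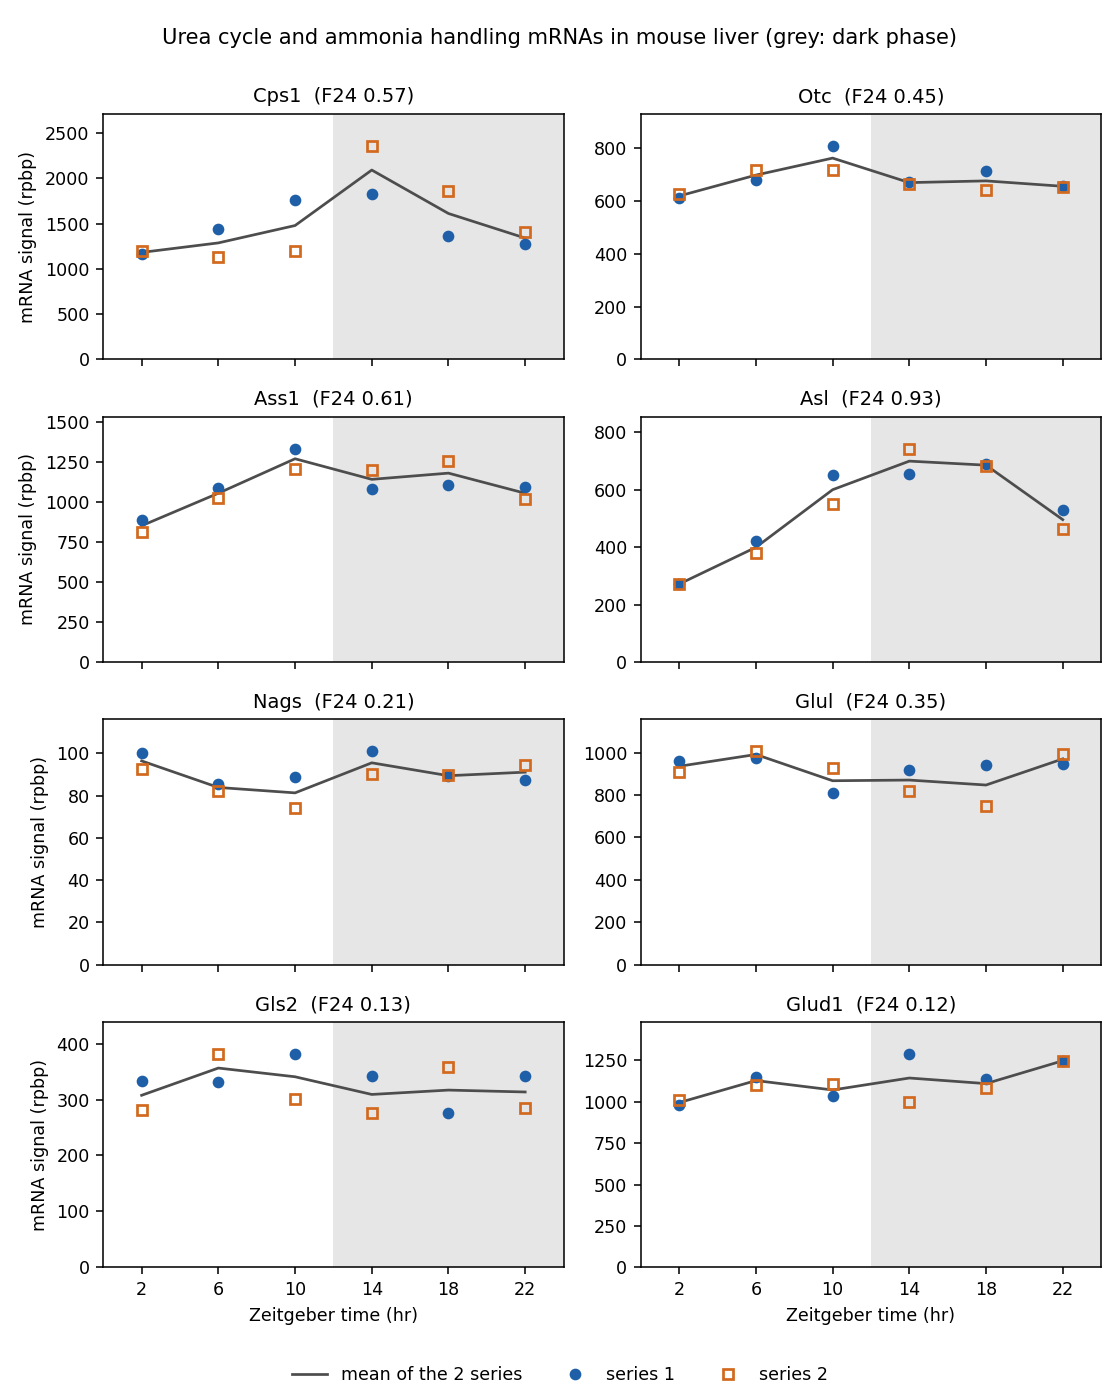
Signal of the 8 mRNAs (rpbp, axis from 0) against Zeitgeber time, with series 1 as filled circles, series 2 as open squares and the mean of both as a line; the dark phase is grey and F24 stands in each title. Asl climbs from 271 rpbp at ZT2 to 699 rpbp at ZT14, whereas Otc, Nags, Glul, Gls2 and Glud1 did not meet the criteria for rhythmic mRNA.

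Asl encodes argininosuccinate lyase, which splits argininosuccinate into arginine and fumarate. The gene lies at chr5:130487128-130501002 on the minus strand (mm9), with 18 merged exons of 4563 bases in the GENCODE vM1 annotation. The signal was computed by the authors on their own gene models, whose exons may differ. Asl mRNA measured 270.4, 420.2, 650, 655, 688 and 528 rpbp from ZT2 to ZT22 in series 1. The corresponding levels of series 2 were 272, 378, 550, 743, 682 and 463 rpbp. Both ZT2 libraries were below all others and both ZT6 libraries came next, while the ZT14 and ZT18 libraries were the 4 highest. The mean was 271 ± 1.33 rpbp at ZT2 and 699 ± 61.9 rpbp at ZT14 (SD, n = 2), a 2.58-fold range of time-point means, against at most 1.18-fold between the 2 samples of a time point. F24 was 0.926 with a permutation p of 0.0001 (10000 permutations cannot give a smaller one), an adjusted permutation p of 0.0146 and a peak at ZT15.0. The peak fell at ZT14.8 in series 1 alone and at ZT15.1 in series 2 alone. Without the ZT2 libraries F24 was still 0.906 (permutation p = 0.0004) and the amplitude 1.97, in place of 2.75 with them.

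Ass1 encodes argininosuccinate synthetase, which joins citrulline and aspartate and so brings in the second nitrogen of urea (chr2:31325727-31376192, plus strand, mm9). Ass1 signals from ZT2 to ZT22 were 889.5, 1088, 1336, 1083, 1106 and 1094 rpbp in series 1. They were 817, 1025, 1209, 1204, 1259 and 1019 rpbp in series 2. Both ZT2 libraries were below the other 10, which overlapped broadly, and the highest value fell at ZT10 in one series and at ZT18 in the other. The lowest mean, 853 ± 51.6 rpbp at ZT2, and the highest, 1272 ± 90.5 rpbp at ZT10 (SD, n = 2), were 1.49-fold apart. F24 was 0.607 (permutation p = 0.0154, adjusted 0.106), the amplitude 1.64 and the peak ZT13.4. This call rested on ZT2: without the ZT2 library of series 2 the permutation p was 0.0513, and without both ZT2 libraries F24 was 0.376 (permutation p = 0.205) and the amplitude 1.31.

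Cps1 encodes carbamoyl phosphate synthetase, the mitochondrial enzyme that admits ammonia to the cycle (chr1:67169600-67277833, plus strand, mm9). In GENCODE vM1 it has 38 merged exons of 5555 bases. Across ZT2 to ZT22, Cps1 reached 1169, 1445, 1763, 1825, 1367 and 1270.0 rpbp in series 1. Series 2 gave 1195, 1129, 1195, 2359, 1856 and 1411 rpbp. The highest value stood at ZT14 in both series, but the samples of a time point were far apart, up to 1.48-fold at ZT10, and the groups around dusk and dawn overlapped. The mean was 2092 ± 378 rpbp at ZT14 and 1182 ± 18.3 rpbp at ZT2 (SD, n = 2), a 1.77-fold range. F24 was 0.570 (permutation p = 0.0204, adjusted 0.120), the amplitude 2.09 and the peak ZT14.5. Taken alone, series 1 placed the peak at ZT12.0 and series 2 at ZT16.0. The call was lost without the ZT14 library of series 2 (F24 0.516, permutation p = 0.0661, amplitude 1.64) and without both ZT2 libraries (F24 0.504, permutation p = 0.0851), where the amplitude stayed at 2.09.

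Otc encodes ornithine transcarbamylase, the second mitochondrial step (chrX:9829431-9898150, plus strand, mm9). From ZT2 to ZT22 the Otc signal was 612, 678, 809, 674, 712 and 658 rpbp in series 1, and in series 2 it was 626, 718, 716, 666, 640 and 653 rpbp. Both ZT2 libraries were the lowest of all, and all other libraries except one at ZT10 lay between 640 and 718 rpbp. Otc had the smallest spread over the day of the 4 cycle enzymes Cps1, Otc, Ass1 and Asl, with a coefficient of variation over the 12 libraries of 7.80 percent, against 31.3 percent for Asl and 25.1 percent for Cps1. F24 reached 0.454 with a permutation p of 0.0501, and the amplitude of 1.32 was below the minimum of 1.5, so Otc was not called rhythmic.

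The promoter sequences used here, from RefSeq (GRCm38.p6), were matched to 5 of the 8 genes: Otc, Ass1, Nags, Glul and Glud1. The 250 bases upstream of each start were searched on both strands for the E-box CACGTG, the sequence that the clock proteins CLOCK and BMAL1 bind, and for 5 other motifs: the D-box TTANGTAA, the cAMP response element TGACGTCA, the C/EBP motif TTGCNNAA, the glucocorticoid receptor half-site AGAACA and the HNF4 motif CAAAGTCCA. These letters were found in 6.02, 2.06, 1.55, 9.56, 16.1 and 0.384 percent, respectively, of the same windows of all 32851 promoters. The only match in the 5 genes was an E-box before Ass1, 36 to 31 bases upstream of the start, which overlaps no other motif searched. The Ass1 window (chr2:31470020-31470269, plus strand) is shown because Ass1 was the only rhythmic mRNA with an entry, with the E-box in capitals, beside that of Otc (chrX:10252055-10252304, plus strand), a cycle enzyme that was not rhythmic and has no match:
Ass1: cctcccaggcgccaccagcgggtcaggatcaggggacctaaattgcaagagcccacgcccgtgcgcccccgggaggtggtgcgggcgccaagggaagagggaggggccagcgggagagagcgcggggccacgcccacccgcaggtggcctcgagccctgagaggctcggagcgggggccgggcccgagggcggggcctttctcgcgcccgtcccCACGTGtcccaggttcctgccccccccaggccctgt
Otc: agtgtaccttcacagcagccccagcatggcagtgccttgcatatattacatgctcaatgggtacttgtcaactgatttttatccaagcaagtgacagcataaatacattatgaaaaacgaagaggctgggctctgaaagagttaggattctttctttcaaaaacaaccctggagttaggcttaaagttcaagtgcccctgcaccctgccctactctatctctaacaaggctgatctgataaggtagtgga
The windows also differ in base composition: G and C make up 75.6 percent of the Ass1 window and 43.6 percent of that of Otc, with a median of 52.4 percent over all promoters. A match describes the letters in this window and is not evidence of binding.

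The 3 mRNAs of glutamine and glutamate enzymes and the Nags mRNA had amplitudes from 1.32 to 1.39. Nags, at chr11:102006827-102010791 on the plus strand, ranged from 73.9 rpbp in a ZT10 library to 101 rpbp in a ZT14 library (F24 0.208, permutation p = 0.364). Of its 2838 exon bases in GENCODE vM1, 443 are shared with the antisense gene Gm11586. The counting ignored strand, so reads of the 2 genes cannot be told apart wherever the authors' exons include these bases. Glul encodes glutamine synthetase and lies at chr1:155747074-155756853 (plus strand). It measured from 750.5 rpbp in a ZT18 library to 1007 rpbp in a ZT6 library (F24 0.35, permutation p = 0.157). The time-point means of Glul spanned only 1.17-fold, less than the 1.26-fold gap between its ZT18 samples. Gls2, the liver glutaminase, which frees ammonia from glutamine in periportal hepatocytes, lies at chr10:127631513-127647060 (plus strand) and varied from 275.5 to 382 rpbp (F24 0.131, permutation p = 0.513). The 2 samples of a Gls2 time point differed by up to 1.30-fold, more than the 1.16-fold range of its means. Glud1, glutamate dehydrogenase (chr14:35123913-35158330, plus strand), ran from 978 to 1290 rpbp (F24 0.120, permutation p = 0.546). Both ZT22 samples of Glud1 were close together at 1249 and 1246 rpbp, yet the ZT14 samples lay at 1290 and 998 rpbp. Exon overlap with neighbours in GENCODE vM1 was small for Glul (67 of 3329 bases, with 5830403L16Rik) and Gls2 (97 of 3474 bases, with Spryd4).

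**Figure D2:**
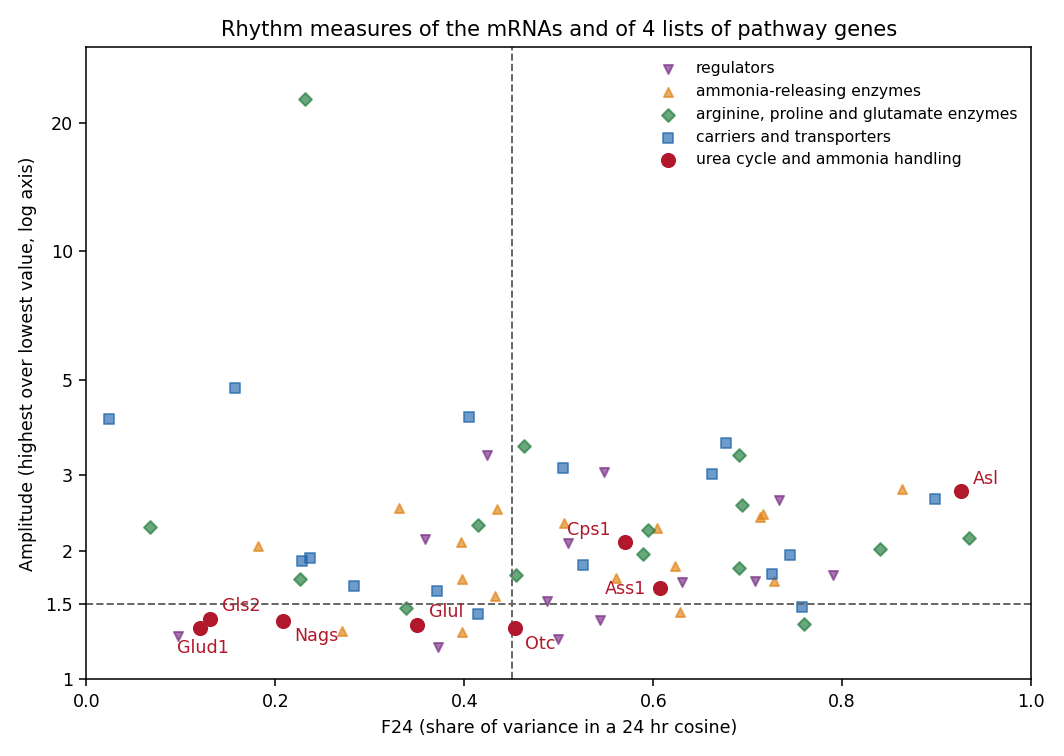
F24 against amplitude (log axis) for the 8 mRNAs, named in red, and for the expressed genes of 4 lists of pathway genes; dashed lines mark the minimums of 0.45 and 1.5. Asl lies far to the right at an F24 of 0.926, Cps1 and Ass1 lie at 0.570 and 0.607, and the other 5 lie below the amplitude minimum.

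A change between time points need not follow a cosine, so the 6 time-point means were also compared with an F-test in limma on log2(rpbp + 1). Asl and Ass1, 2 of the 8 mRNAs, differed between time points, where 20.4% of all expressed genes did, so the share is close to the background. For Asl the limma F was 41.1 with an adjusted p of 0.000613, and 14.9 with an adjusted p of 0.0240 without both ZT2 libraries. For Ass1 the limma F was 6.67 with an adjusted p of 0.0380, which passed 0.05 in only 5 of the 12 fits that leave out 1 library, was 0.0597 with the series as a block and was 0.370 without both ZT2 libraries. The adjusted p of Cps1 from limma was 0.125. The other 5 had limma adjusted p values from 0.250 (Otc) to 0.830 (Gls2).

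The light phase (ZT2, ZT6 and ZT10), when mice rest, was then compared with the dark phase (ZT14, ZT18 and ZT22), when they are active and feed. Asl was the only one of the 8 that passed the test, and it was higher in the dark, as were 3.02% of all expressed genes. Its mean was 423 ± 152 rpbp in the light and 627 ± 108 rpbp in the dark (SD, n = 6 libraries), although the groups overlapped. The log2 difference, light minus dark, was -0.62 ± 0.07 (SE), a 1.54-fold difference, with a limma adjusted p of 0.00118. Without the ZT2 libraries it was -0.34 with a limma adjusted p of 0.0325. In that fit 1094 of the 10055 expressed genes were called in either direction. None of the 8 was higher in the light by this limma test, where 2.27% of all expressed genes were. Cps1 had a log2 difference of -0.34 ± 0.13 (SE), with a limma adjusted p of 0.149. The other 6 had log2 differences between -0.13 (Glud1) and 0.10 (Gls2).

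At right angles to this contrast, livers around lights off (dusk, ZT10 and ZT14) were compared with livers around lights on (dawn, ZT22 and ZT2). Here 2 of the 8 mRNAs were higher at dusk (Asl and Ass1), against 9.15% of all expressed genes. None was higher at dawn in limma, against 9.18% of all expressed genes. The median log2 difference, dusk minus dawn, was 0.11 over the 8 and -0.03 over all expressed genes.

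Asl averaged 649.5 ± 79.1 rpbp at dusk and 383 ± 132 rpbp at dawn (SD, n = 4 libraries), and the dusk values (550 to 743 rpbp) did not overlap with the dawn values (270.4 to 528 rpbp). The log2 difference was 0.82 ± 0.08 (SE), 1.76-fold, with a limma adjusted p of 0.000267. Ass1 averaged 1208 ± 103 rpbp at dusk and 955 ± 125 rpbp at dawn, and the groups overlapped slightly. Its log2 difference was 0.34 ± 0.08 (SE), 1.27-fold, with a limma adjusted p of 0.0141. Leaving out the ZT2 library or the ZT14 library of series 2 ended the Ass1 call (limma adjusted p = 0.0551 and 0.0513). With dawn represented by ZT22 only, neither Asl (0.38 on the log2 scale, limma adjusted p = 0.0867) nor Ass1 (0.19, limma adjusted p = 0.334) passed.

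Cps1 and Otc had higher means at dusk too but missed the adjusted threshold. The log2 difference of Cps1 was 0.46 ± 0.15 (SE, limma adjusted p = 0.0674). It passed when the ZT10 library of series 2 was left out (limma adjusted p = 0.0268). The log2 difference of Otc was 0.16 ± 0.07 (SE, limma adjusted p = 0.123), although its dusk libraries (666 to 809 rpbp) lay above its dawn libraries (612 to 658 rpbp). Groups without overlap were thus found for 2 of the 8 mRNAs, Asl and Otc, against 15.1% of all expressed genes. Nags, Glul, Gls2 and Glud1 had log2 differences of -0.09, -0.14, 0.06 and -0.02, with SEs of 0.08 to 0.13.

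**Figure D3:**
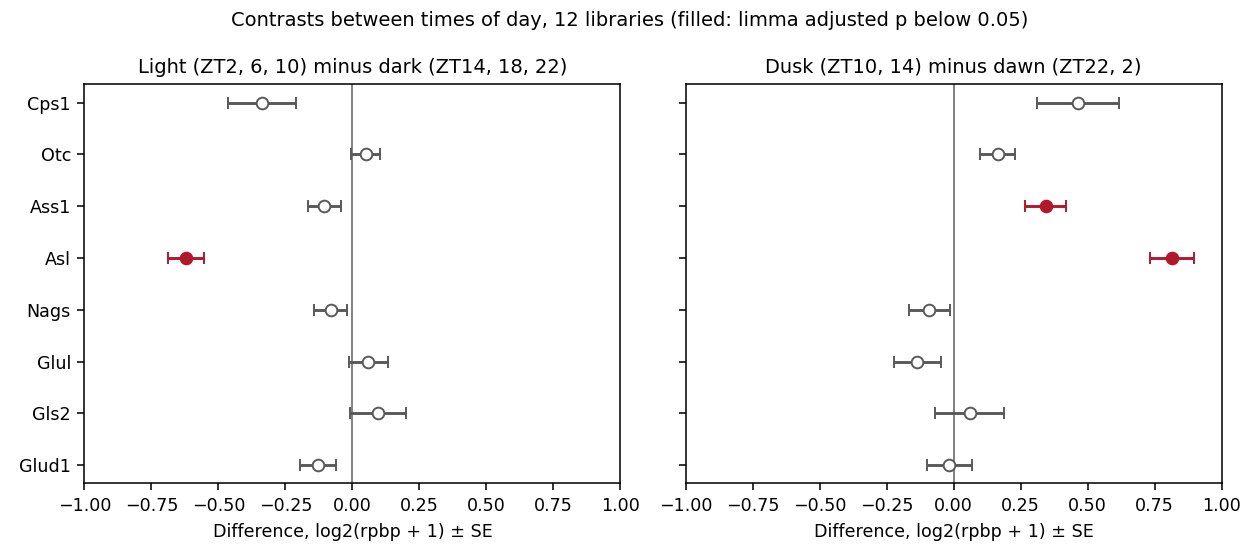
Differences of log2(rpbp + 1) between light and dark libraries (left) and between dusk and dawn libraries (right) for the 8 mRNAs, with bars for the SE of the limma fit; filled symbols mark an adjusted p below 0.05. Asl is lower in the light by 0.62 and higher at dusk by 0.82, and the 4 mRNAs Nags, Glul, Gls2 and Glud1 stay near 0 in both panels.

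Because the signal is per base of exon, the proportions among 4 cycle enzymes could be followed too. The sum of Cps1, Otc, Ass1 and Asl was between 2909 rpbp (ZT2, series 2) and 4972 rpbp (ZT14, series 2), a 1.71-fold range. Cps1 took 39.1 percent of this sum on average, Ass1 29.0 percent, Otc 18.3 percent and Asl 13.5 percent. The share of Asl was the most variable in relative terms, from 9.19 to 17.8 percent. The ratio of Asl to Ass1, the enzyme of the step before it, was 0.304 and 0.334 in the ZT2 libraries and 0.605, 0.622, 0.617 and 0.542 in the ZT14 and ZT18 libraries. All 4 ratios of ZT14 and ZT18 exceeded every ratio of the other time points, of which the highest was 0.486. Relative to Otc, Asl went from 0.435 at ZT2 to 1.12 at ZT14, a 2.57-fold range over the 12 libraries, and all 4 libraries of ZT14 and ZT18 again exceeded the rest. Ratios to Cps1 ran from 0.228 to 0.503 with less order, and the 2 samples of ZT18 lay at 0.503 and 0.367. The ratio of Ass1 to Otc moved less, between 1.30 and 1.97.

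**Figure D4:**
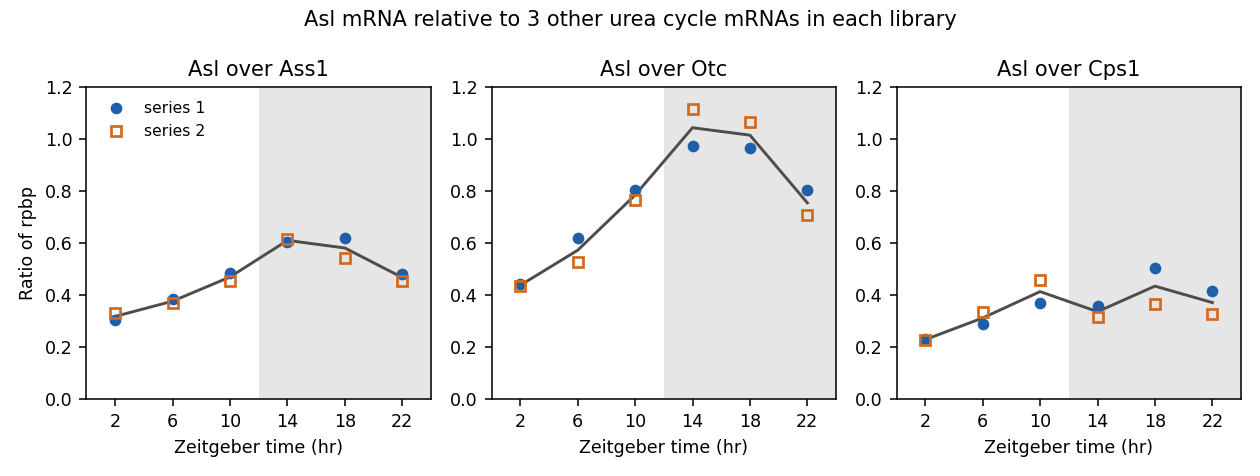
Ratio of Asl mRNA to Ass1, Otc and Cps1 mRNA (rpbp over rpbp, axis from 0) in each library against Zeitgeber time, with series 1 as filled circles, series 2 as open squares and their mean as a line. The ratio to Ass1 is lowest at ZT2 (0.304 and 0.334) and above 0.54 in all libraries of ZT14 and ZT18.

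Genes that serve the cycle from outside were taken from 4 lists. The share of all expressed genes with the same call is given in parentheses as a percent of all, or as a percent of the 10055 genes expressed without the ZT2 libraries. Of 27 listed carriers and transporters, 16 were expressed and 7 of these were rhythmic (19.1% of all), with 10 that differed between time points by the limma F-test (20.4% of all). By the dusk and dawn test in limma, 7 were higher at dusk (9.15% of all) and 2 at dawn (9.18% of all). Slc25a13, the mitochondrial aspartate and glutamate carrier that supplies aspartate to Ass1, read 145, 228, 251, 249.7, 225 and 210 rpbp in series 1 and 136, 225, 266, 236, 195.5 and 177 rpbp in series 2 from ZT2 to ZT22. Both ZT2 libraries were the lowest and both ZT10 libraries the highest (F24 0.745, permutation p = 0.0015, peak ZT12.1). Slc38a3, a glutamine transporter of hepatocytes and the most abundant gene of the list, went from 708 ± 61.6 rpbp at ZT22 to 1748 ± 12.4 rpbp at ZT6 (SD, n = 2), with an F24 of 0.898 and a peak at ZT8.1. Aqp9, a channel for glycerol and urea, peaked at ZT6.3 (F24 0.725, amplitude 1.77). The cationic amino acid transporter Slc7a2 peaked at ZT8.0 (F24 0.677, amplitude 3.57), and the amino acid transporter Slc38a4 at ZT7.9 (F24 0.525, amplitude 1.85). Car5a, the mitochondrial carbonic anhydrase that provides bicarbonate to carbamoyl phosphate synthetase, was picked after its values were seen: its mean was 71.1 ± 5.85 rpbp at ZT2 and 194 ± 11.9 rpbp at ZT10 (SD, n = 2), with an F24 of 0.662. The ornithine carrier Slc25a15 was not rhythmic (F24 0.415, permutation p = 0.0926). Without the ZT2 libraries 6 genes of this list were rhythmic (15.2% of all), 7 differed between time points (6.16% of all), 3 were higher at dusk than at ZT22 (2.39% of all) and 1 was higher at ZT22 (2.35% of all). Slc1a4, with a mean of 7.63 rpbp, passed the minimum in 4 libraries only, 3 of them at dawn, so its calls as rhythmic and higher at dawn rest on the libraries that let it in.

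Enzymes of arginine, ornithine, proline and glutamate beside the cycle formed the next list. Of 23 listed, 15 were expressed, 7 were rhythmic (19.1% of all) and 10 differed between time points in limma (20.4% of all), with 11 higher at dusk (9.15% of all) and 0 higher at dawn (9.18% of all). All 7 peaks lay between ZT6 and ZT18, as did 46.1% of the peaks of all rhythmic mRNAs. Oat, ornithine aminotransferase, which draws ornithine away from the cycle in pericentral hepatocytes, had levels of 579, 1154, 1269, 815, 823 and 656 rpbp in series 1 and 449.5, 1504, 1340.0, 951, 809.8 and 560 rpbp in series 2. The 4 libraries of ZT6 and ZT10 were above the other 8 (F24 0.691, permutation p = 0.0072, peak ZT9.6). Prodh, proline dehydrogenase, had an F24 of 0.934 and a peak at ZT12.2, with a mean of 112 ± 8.49 rpbp at ZT2 and of 215 ± 16.5 rpbp at ZT10 (SD, n = 2). The alanine aminotransferase Gpt1 (F24 0.840, peak ZT11.6) and the creatine enzyme Gamt (F24 0.694, peak ZT11.3) were highest at ZT10 as well. Got2, the mitochondrial aspartate aminotransferase, was not rhythmic (F24 0.338). Without the ZT2 libraries 8 of these genes were rhythmic (15.2% of all), 5 differed between time points (6.16% of all) and 5 were higher at dusk (2.39% of all).

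Enzymes that release ammonia from amino acids or nucleotides peaked in both the light and the dark phase, 4 of 8 between ZT6 and ZT18 (46.1% of all rhythmic mRNAs). Of 21 listed, 17 were expressed, 8 were rhythmic (19.1% of all) and 11 differed between time points in limma (20.4% of all), with 7 higher at dusk (9.15% of all) and 4 higher at dawn (9.18% of all). Gldc and Amt, both of the glycine cleavage system, peaked at ZT20.9 and ZT23.0. Gldc measured 119, 92.4, 67.8, 132, 149 and 189 rpbp from ZT2 to ZT22 in series 1, and 128, 85.5, 69.4, 108, 129 and 161 rpbp in series 2. Both ZT22 libraries were the highest and both ZT10 libraries the lowest (F24 0.864, permutation p = 0.0002). Sds, serine dehydratase, peaked at ZT8.3 (F24 0.713), and Hpd, an abundant enzyme of tyrosine breakdown, at ZT12.1 (F24 0.728, 1876 ± 23.7 rpbp at ZT2 and 2972 ± 268 rpbp at ZT10). Tdo2, the tryptophan dioxygenase, was not rhythmic (F24 0.433). With the ZT2 libraries left out, 3 of the list were rhythmic (15.2% of all) and 3 differed between time points (6.16% of all), and the count of genes higher at dusk was then 0 in limma (2.39% of all), with 2 higher at ZT22 (2.35% of all).

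Of 15 listed regulators, 13 were expressed and 7 were rhythmic (19.1% of all), with 4 that differed between time points in limma (20.4% of all), 3 higher at dusk (9.15% of all) and 3 higher at dawn (9.18% of all). Foxo1, a transcription factor that insulin restrains, peaked at ZT11.5 (F24 0.790), and Klf15, a regulator of amino acid breakdown, at ZT10.8 (F24 0.708, 117 ± 7.58 rpbp at ZT2 and 184 ± 7.16 rpbp at ZT10). Cebpa, a hepatocyte transcription factor known to act on urea cycle genes, peaked at ZT7.4 (F24 0.631). Axin2, a target of Wnt signalling, had a mean of 5.76 rpbp and passed the minimum for expression in 2 dawn libraries only. Its calls as rhythmic and higher at dawn are counted above but rest on the libraries that let it in. Hnf4a, the most abundant of the list, was not rhythmic (F24 0.499, permutation p = 0.0595, amplitude 1.24). When the ZT2 libraries were left out, 5 regulators were rhythmic (15.2% of all), and in limma none differed between time points (6.16% of all) or between dusk and ZT22 (2.39% of all higher at dusk, 2.35% higher at ZT22).

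**Figure D5:**
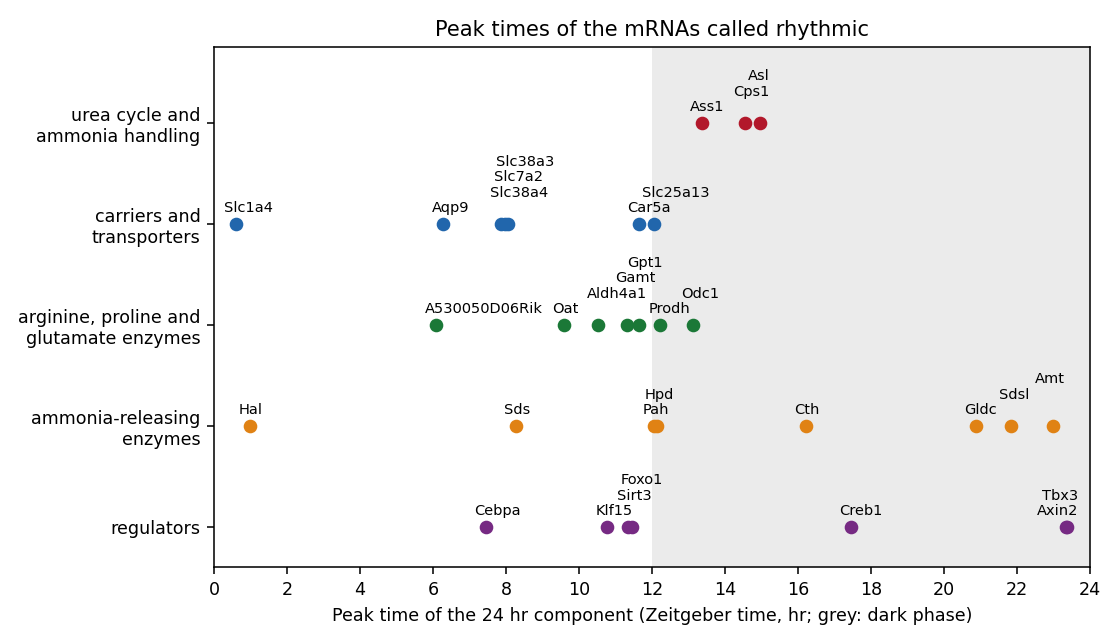
Peak time of the 24 hr component (hr of Zeitgeber time, dark phase grey) for each mRNA called rhythmic among the 8 and in the 4 lists of pathway genes, one row per list. The 3 cycle mRNAs peak from ZT13.4 (Ass1) to ZT15.0 (Asl), and Hal, Gldc, Sdsl and Amt of the ammonia-releasing enzymes peak between ZT20.9 and ZT1.0. Slc1a4 and Axin2 had means below the minimum for expression.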

How the data were processed

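Liver poly(A) RNA libraries were made with the TruSeq kit, and the authors processed the sequences with CASAVA 1.8 and TopHat on mm9. The deposited signal is the authors' coverage per exon base (rpbp), summed over the flattened exons of a gene without regard to strand and scaled to 10000000 uniquely mapped sequences. Columns headed ZT20 were read as ZT22, the time that the sample labels give. The authors' own F24, phase and p-value columns were not used.

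The signal was multiplied by 4. F24 and permutations were computed with numpy 2.4.6, and limma 3.58.1 (R 4.3.3) was fitted on log2(rpbp + 1) with a trended prior over all 10198 expressed genes, with Benjamini-Hochberg adjustment at 0.05. No count test was used, since the signal is not a count. Scripts were checked on simulated data. The 8 genes, the lists and the tests were chosen with earlier results of these data known. The text names all 8 genes and, per list, up to 4 rhythmic genes of highest F24 and the 2 of highest mean; Slc25a15 and Car5a were added after their values were seen. Gene positions, exon counts, exon lengths and exon overlaps come from GENCODE vM1 on mm9, not from the authors' gene models behind the signal. One further gene of the pathway is not reported here. Alternatives were other scalings, pseudocounts, minimums, permutations, priors, a series block, and libraries left out.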

Additional observations from a re-analysis of the deposited data

How the results depend on the processing

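The limits of these results are the 2 samples per time point, the distance of the ZT2 libraries from the rest, and unadjusted permutation p values for 2 of the 3 rhythm calls. Of the 25 alternatives, 20 left the number of rhythmic mRNAs among the 8 within 1.5 times of 3. With the adjusted permutation p it was 1, with a limma cosine F-test 1, and without both ZT2 libraries, an alternative chosen after seeing the data, 1 (Asl; 15.2% of all genes then). Series 1 alone gave 0 and series 2 alone gave 1, from all 720 orders of 6 values, and leaving out single libraries gave 2 to 3. Among all expressed genes the counts of rhythmic mRNA were 491 with the adjusted p, 874 with the limma cosine test, and 284 and 360 in series 1 and series 2 alone, against 1948.

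The F-test count of 2 was 1 without an expression minimum, 1 with a prior without a trend, 1 without both ZT2 libraries and 1 to 2 without single libraries. The dusk and dawn count of 2 was 0 without both ZT2 libraries and 1 to 3 without single libraries. The light and dark count of 1 did not move in any of 19 alternatives. Among all expressed genes, single libraries left out gave 921 to 2017 F-test calls against 2076, 217 to 543 light and dark calls against 540, and 1093 to 1791 dusk and dawn calls against 1869. Without both ZT2 libraries these were 619, 1094 and 476, and the light and dark calls were 312 without an expression minimum. The differences that changed sign in an alternative, none of them called, were the light minus dark log2 of Ass1 (0.0428 without both ZT2 libraries), the dusk minus dawn log2 of Gls2 (-0.0262 to 0.146 with single libraries left out) and that of Glud1 (0.0073 with median-of-ratios size factors, -0.108 to 0.0766 with single libraries left out). The cause of these shifts was not tested.

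Samples of the 2 series share only a number: deviations from the time-point means correlated between -0.15 and 0.21 within a series, and 2 of 15 pairs were above 0.1. With the series as a replicate block, 3 of the 8 were rhythmic, 1 differed between time points, 1 between light and dark and 2 between dusk and dawn. Otc was never called in the alternatives. Its highest F24 was 0.699, and its lowest permutation p, with 1 library left out, was 0.0229. A call also needs an amplitude above 1.5, and that of Otc was 1.32, which leaving out libraries cannot raise.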

Other observations

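The enzymes studied lie in different zones of the liver lobule, so markers of the zones were listed beside them. Among 11 expressed pericentral markers, 6 were rhythmic (19.1% of all expressed genes), with 4 higher at dusk (9.15% of all) and 2 higher at dawn (9.18% of all) in limma. Cyp2e1, a cytochrome of pericentral hepatocytes, had an F24 of 0.749 and peaked at ZT11.5, and Cyp2a5 had an amplitude of 24.7 with a peak at ZT12.1, whereas Tbx3 peaked at ZT23.4. Axin2, counted among the rhythmic markers and those higher at dawn, passed the minimum for expression in 2 dawn libraries only. Among 11 periportal markers, which include Cps1, Ass1 and Gls2, 6 were rhythmic against the same shares of all genes, with 3 higher at dusk and 3 higher at dawn. Of the 6 rhythmic ones, Hal, the histidine ammonia-lyase, peaked at ZT0.98, the cadherin gene Cdh1 at ZT23.8 and Ctsc at ZT23.2. Sds peaked at ZT8.3, Ass1 at ZT13.4 and Cps1 at ZT14.5. Without the ZT2 libraries 4 pericentral markers were rhythmic (15.2% of all genes expressed then), 3 were higher at dusk (2.39% of all) and 0 at ZT22 (2.35% of all) in limma. For the periportal markers these counts were 2, 0 and 1, against the same shares. These genes were named after their values were seen.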
